A study of Mus musculus with 4 samples.

Results

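The 33 genes described here are erythroid and heme genes, a list chosen by name: embryonic globins with their chaperone, enzymes and carriers of heme synthesis, proteins of the red cell membrane and its skeleton, erythroid transcription factors with the erythropoietin receptor, and red cell enzymes. Of the 33, 32 had a probe set with a single gene symbol on the array, among 18193 such genes in all, and Ahsp was not analysed here. Expression was measured on 4 Affymetrix mouse genome arrays of 1 colour, each with pooled RNA of 1 group, so no group has a replicate and p-values, where given, measure only the spread among these 4 arrays. The groups were heads of Hand2NC embryos at E12.5, heads of wild-type embryos at E12.5, whole bodies of Hand2NC embryos at E11.5 and whole bodies of wild-type embryos at E11.5. Hand2NC embryos have the genotype Hand2 CAT/+; Wnt1-Cre: a conditional Hand2 transgene was switched on by Cre expressed from the Wnt1 promoter, which is active in the dorsal neural tube and neural crest. All 4 groups came from the same mixed C57BL/6J x ICR background. The values are signals in arbitrary units, scaled so that each array has a trimmed mean of 500, and a difference is a log2 ratio of 2 such signals.

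In mouse embryos the first red cells, the primitive erythroid cells, form in the yolk sac, enter the circulation and make embryonic globins. A second, definitive lineage then matures in the fetal liver and makes adult globins. Both lineages build heme in and around the mitochondrion, load it into globin chains, and assemble a spectrin-based skeleton under the membrane. GATA1, KLF1 and TAL1 with their partners drive this program, and several of them also act in megakaryocytes, which share a progenitor with red cells. Red cells do not derive from neural crest.

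The promoters of 6 members are shown, since the genes they drive are those with the largest differences between stages, the globins with a promoter entry, and the 1 member called between genotypes. They hold the 250 bases before each annotated start, from RefSeq on GRCm38.p6, written 5′ to 3′ on the gene's own strand, with matches to 4 motifs in capitals. The motifs were AGATAA or TGATAA, the letters read by GATA factors, CCNCNCCC, a KLF1 type of motif, CCAAT and TATAAA, each on both strands, and a run of capitals can hold overlapping matches.
Hba-x, chr11:32276350-32276599, plus strand: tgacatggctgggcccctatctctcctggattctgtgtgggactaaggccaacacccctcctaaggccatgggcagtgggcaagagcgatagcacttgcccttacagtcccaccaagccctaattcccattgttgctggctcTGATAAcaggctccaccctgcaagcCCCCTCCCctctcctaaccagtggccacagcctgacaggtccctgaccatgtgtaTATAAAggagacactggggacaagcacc
Hbb-y, chr7:103853208-103853457, minus strand: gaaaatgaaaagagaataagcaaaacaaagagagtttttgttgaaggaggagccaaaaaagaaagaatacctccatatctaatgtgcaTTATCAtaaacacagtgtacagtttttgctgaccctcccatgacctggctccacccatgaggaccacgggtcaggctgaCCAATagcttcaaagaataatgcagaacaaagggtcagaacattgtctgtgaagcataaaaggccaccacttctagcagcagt
Hemgn, chr4:46404184-46404433, minus strand: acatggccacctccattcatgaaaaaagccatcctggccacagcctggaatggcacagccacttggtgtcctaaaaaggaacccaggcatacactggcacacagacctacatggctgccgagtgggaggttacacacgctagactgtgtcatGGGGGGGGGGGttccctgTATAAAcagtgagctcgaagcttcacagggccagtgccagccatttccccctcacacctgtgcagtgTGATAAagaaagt
Klf1, chr8:84901732-84901981, plus strand: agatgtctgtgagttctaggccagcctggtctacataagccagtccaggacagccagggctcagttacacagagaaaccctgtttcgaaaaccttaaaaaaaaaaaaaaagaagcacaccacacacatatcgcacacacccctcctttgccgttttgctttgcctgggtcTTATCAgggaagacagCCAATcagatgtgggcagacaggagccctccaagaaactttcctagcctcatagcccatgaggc
Rhag, chr17:40810899-40811148, plus strand: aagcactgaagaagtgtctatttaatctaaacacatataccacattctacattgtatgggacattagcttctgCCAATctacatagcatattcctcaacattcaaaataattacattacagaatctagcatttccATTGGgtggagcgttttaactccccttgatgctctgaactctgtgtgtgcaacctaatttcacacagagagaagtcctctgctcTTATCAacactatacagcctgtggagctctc
Alas2, chrX:150547167-150547416, plus strand: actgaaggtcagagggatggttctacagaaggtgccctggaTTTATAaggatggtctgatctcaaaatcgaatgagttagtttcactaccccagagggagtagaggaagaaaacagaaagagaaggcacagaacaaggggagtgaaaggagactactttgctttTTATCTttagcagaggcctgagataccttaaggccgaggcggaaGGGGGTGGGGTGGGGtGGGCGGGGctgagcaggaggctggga
Of the 33 members, 24 had a promoter entry, in which the 50 bases after the start were searched too and the first listed start was used. A GATA match stood in 15 of these 24 promoters, against 18.6% of 32851 promoters in the table. In the Klf1 promoter the match began 80 bases before the start, beside a CCAAT match that began 64 bases before it, and in the Hba-x promoter the GATA match began 108 and the TATAAA match 28 bases before the start. The KLF1 type of motif was found in 16 of 24 member promoters, against 49.5% of all, CCAAT in 10, against 37.4% of all, and TATAAA in 5, against 13.6% of all. These matches describe the letters only.

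The arrays were alike in overall signal, with medians between 97.2 and 106 and highest signals between 33230 and 37842. Ratios of the probe sets at the 3′ and 5′ ends of Actb were between 1.36 and 1.48 and of Gapdh between 0.804 and 0.890. At E12.5, 1 of 3 Hand2 probe sets read 706 in Hand2NC heads and 33.4 in wild-type heads, and at E11.5 it read 314 in Hand2NC whole bodies and 67.1 in wild-type whole bodies, in the direction of the labels. A second read 839 in Hand2NC heads and 592 in wild-type heads, and the third was below 8 on every array. The Hand2NC E12.5 array stood apart from the others in sex-linked genes: Y-linked Eif2s3y read 14.4 there, against 956 in wild-type E12.5 heads, 853 in Hand2NC E11.5 whole bodies and 840 in wild-type E11.5 whole bodies. On the same array Xist read 16187, against 8988 in wild-type E12.5 heads. The liver gene Alb read 33.7 and 29.1 in the Hand2NC and wild-type E12.5 heads and 8530 and 9010 in the Hand2NC and wild-type E11.5 whole bodies, so the E11.5 arrays carried liver RNA as the whole-body label says. A legend of the study names heads for that stage too, and the labels were followed here.

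Most erythroid and heme genes had lower signals in the E12.5 heads than in the E11.5 whole bodies, in Hand2NC and in wild-type alike. In Hand2NC, 20 of 32 members were at least 2-fold lower, where 2.24% of all genes above the signal filter were, and in wild-type 20 of 32 were, where 2.61% of all genes were. The filter asks that the brighter of the compared arrays lie at or above its own median. No member was 2-fold higher in either genotype, against 2.87% of all genes in Hand2NC and 4.45% in wild-type. The median log2 difference of the members was -1.64 in Hand2NC and -1.52 in wild-type, beside medians of 0.04 and 0.03 over all genes. In 19 members the 2-fold decrease was seen in both genotypes, as in 1.72% of the 11803 genes above the filter in both. Of these 19, 11 had both head signals at or above their array medians. The rest had a head signal below its median and passed the filter there only through the E11.5 array, where they were brighter. For 28 of 32 members, both E12.5 signals lay below both E11.5 signals, a pattern met by 31.4% of those 11803 genes. Stage and tissue changed together between these arrays and cannot be told apart, and in such bulk RNA fewer red cells and less RNA per cell cannot be told apart either.

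**Figure D1:**
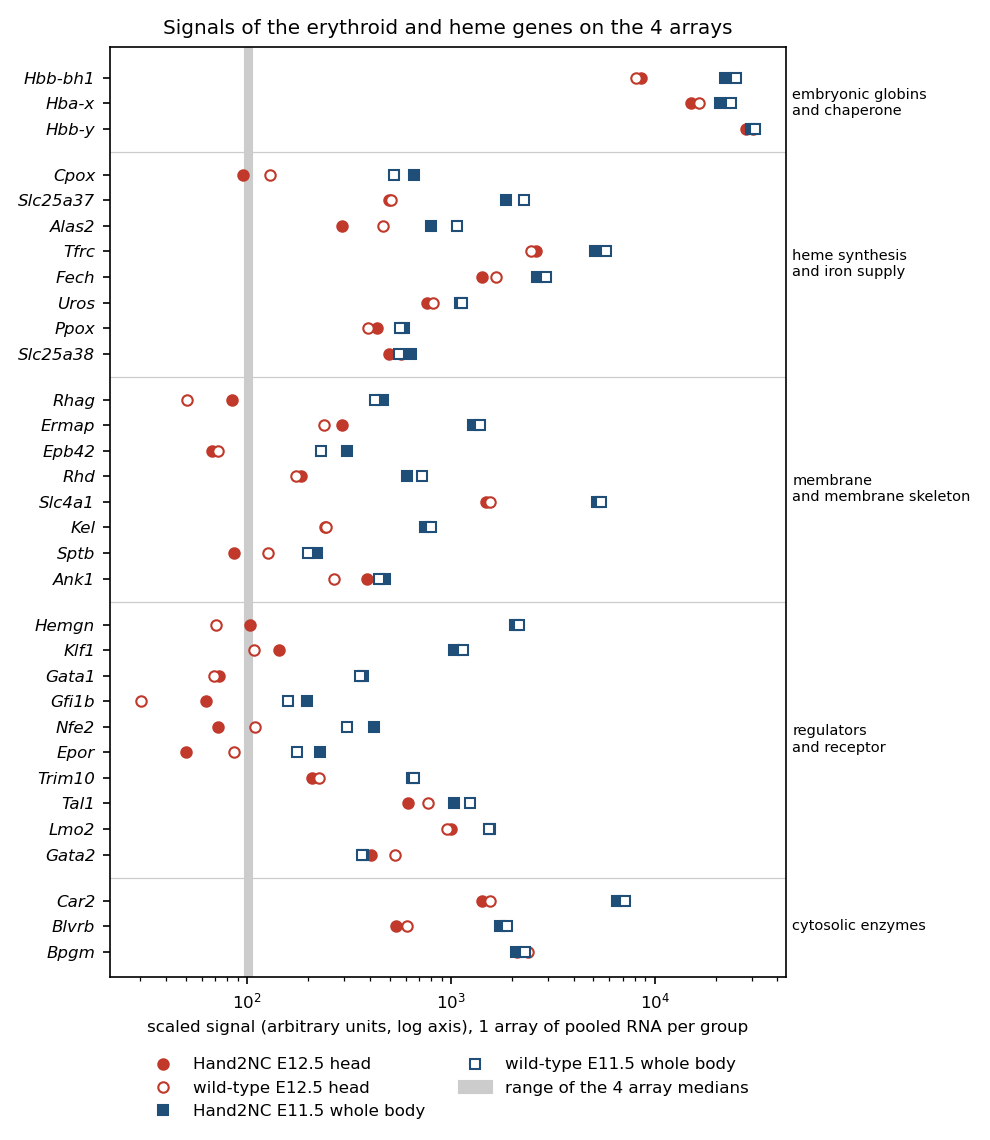
Scaled signals (log axis, arbitrary units) of the 32 erythroid and heme genes on the 4 arrays, 1 row per gene and 1 point per array, grouped by role. Circles are E12.5 heads and squares E11.5 whole bodies, filled for Hand2NC and open for wild-type, and the grey band is the range of the 4 array medians (97.2 to 106); in 28 genes both circles lie left of both squares.

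The embryonic globins lay well above the array medians in all 4 groups, and the size of the difference between stages varied among them. Hbb-bh1, an embryonic beta-like globin, read 8573 in Hand2NC heads and 8056 in wild-type heads at E12.5, against 22188 in Hand2NC whole bodies and 25003 in wild-type whole bodies at E11.5. Hba-x, the embryonic alpha-like globin zeta, read 15136 and 16433 in the Hand2NC and wild-type heads, against 20936 and 23727 in the Hand2NC and wild-type whole bodies. In both genes the E12.5 arrays lay below the E11.5 arrays with no overlap, by log2 -1.37 in Hand2NC and -1.63 in wild-type for Hbb-bh1, and by -0.47 and -0.53 for Hba-x. Hbb-y, the embryonic epsilon-type beta-like globin, read 28059 and 30503 in the Hand2NC and wild-type heads and 29545 and 31025 in the Hand2NC and wild-type whole bodies. Its groups overlapped, with log2 differences of -0.07 in Hand2NC and -0.02 in wild-type. The log2 difference between stages was therefore lower for Hbb-bh1 than for Hbb-y by 1.30 in Hand2NC and by 1.61 in wild-type, each from a single pair of arrays. The Hbb-y signals of 28059 to 31025 lay close to the top of the arrays' range, and whether its probes were saturated was not tested.

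Among genes of heme synthesis and iron supply, 3 of 8 were at least 2-fold lower in the heads in Hand2NC and 4 of 8 in wild-type, and the size of the difference varied widely. Cpox, which carries out a late step of the pathway at the mitochondrion, read 95.9 in Hand2NC heads and 130 in wild-type heads, against 656 in Hand2NC whole bodies and 525 in wild-type whole bodies. Slc25a37, the mitochondrial iron importer mitoferrin of red cells, read 498 and 508 in the Hand2NC and wild-type heads, against 1874 and 2280 in the Hand2NC and wild-type whole bodies. Alas2, the erythroid enzyme of the first and rate-limiting step, read 293 and 466 in the Hand2NC and wild-type heads, against 801 and 1069 in the Hand2NC and wild-type whole bodies. None of the 3 overlapped between stages. The transferrin receptor Tfrc, which brings iron into red cell precursors and into dividing cells generally, read 2629 and 2466 in the Hand2NC and wild-type heads, against 5083 and 5790 in the Hand2NC and wild-type whole bodies, and passed 2-fold in wild-type only (log2 -0.95 in Hand2NC and -1.23 in wild-type). Fech, which inserts iron to finish heme, read 1422 and 1658 in the Hand2NC and wild-type heads, against 2633 and 2919 in the Hand2NC and wild-type whole bodies.

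The other 3 heme genes stayed within 2-fold, as Fech did by the probe set used. Another Fech probe set differed by log2 -1.10 in each genotype, and a further one by -1.18 in Hand2NC and -0.83 in wild-type. Uros, an enzyme of the middle of the pathway, read 766 and 821 in the Hand2NC and wild-type heads, against 1103 and 1135 in the Hand2NC and wild-type whole bodies. Ppox, the enzyme before the last, read 433 and 390 in the Hand2NC and wild-type heads, against 586 and 561 in the Hand2NC and wild-type whole bodies. Both were lower in the heads without overlap, by log2 differences between -0.44 and -0.53. Slc25a38, a mitochondrial carrier that supplies glycine for heme, read 496 and 569 in the Hand2NC and wild-type heads and 639 and 554 in the Hand2NC and wild-type whole bodies, with overlap. Ppox has 3 probe sets, and with their mean in place of the brightest the difference over both genotypes turned to 0.12.

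Of the 8 membrane and skeleton genes, 7 in Hand2NC and 6 in wild-type were at least 2-fold lower in the heads. Slc4a1, the anion exchanger that is the most abundant protein of the red cell membrane, read 1495 in Hand2NC heads and 1560 in wild-type heads, against 5184 in Hand2NC whole bodies and 5426 in wild-type whole bodies. Its log2 difference was -1.79 in Hand2NC and -1.80 in wild-type. Rhag, the glycoprotein that carries the Rh complex to the surface, read 84.3 and 50.9 in the Hand2NC and wild-type heads, against 466 and 423 in the Hand2NC and wild-type whole bodies. Ermap, an erythroblast membrane protein, read 291 and 238 in the Hand2NC and wild-type heads, against 1284 and 1396 in the Hand2NC and wild-type whole bodies. Rhag and Ermap were more than 4-fold lower in both genotypes. The blood group genes Rhd and Kel followed at smaller size, with Rhd at 185 and 174 in the Hand2NC and wild-type heads, against 608 and 718 in the Hand2NC and wild-type whole bodies. Kel read 241 and 245 in the Hand2NC and wild-type heads, against 747 and 797 in the Hand2NC and wild-type whole bodies.

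The skeleton genes varied more in the size of the difference. Epb42, which links the anion exchanger to the skeleton, read 67.2 and 71.7 in the Hand2NC and wild-type heads, against 308 and 230 in the Hand2NC and wild-type whole bodies. Sptb, the erythroid beta spectrin, read 85.9 and 127 in the Hand2NC and wild-type heads, against 219 and 199 in the Hand2NC and wild-type whole bodies, and passed 2-fold in Hand2NC only (log2 -1.35 in Hand2NC and -0.65 in wild-type). Ank1, the ankyrin that anchors spectrin and that muscle and brain also express, read 387 and 266 in the Hand2NC and wild-type heads, against 473 and 443 in the Hand2NC and wild-type whole bodies. Its log2 differences were -0.29 in Hand2NC and -0.74 in wild-type.

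The regulators held both the largest decrease among the members and the largest difference in the other direction, and 7 of 10 were at least 2-fold lower in the heads in each genotype. Hemgn, an erythroid nuclear protein, read 103 in Hand2NC heads and 70.7 in wild-type heads, against 2063 in Hand2NC whole bodies and 2160 in wild-type whole bodies, a log2 difference of -4.32 in Hand2NC and -4.93 in wild-type, the wild-type head signal lying below its array's median. It was the only member more than 8-fold lower in both genotypes, as 0.373% of all genes were. Klf1, the zinc finger activator of adult globin and many red cell genes, read 144 and 108 in the Hand2NC and wild-type heads, against 1032 and 1142 in the Hand2NC and wild-type whole bodies. Gata1 read 73.0 and 69.1 in the Hand2NC and wild-type heads, against 371 and 357 in the Hand2NC and wild-type whole bodies. Gata1 and Klf1 were thus more than 4-fold lower in both genotypes, as were Cpox, Rhag, Ermap, Car2 and Hemgn, 7 members in all, where 0.796% of all genes were. A second Cpox probe set above the filter fell short of 4-fold, with log2 -1.49 in each genotype.

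Nfe2, Gfi1b and Epor were dim in the heads, and their differences varied with genotype: log2 -2.54 in Hand2NC and -1.50 in wild-type for Nfe2, -1.65 and -2.41 for Gfi1b, and -2.18 and -1.02 for Epor. Nfe2, a subunit of a factor of red cells and megakaryocytes, read 71.9 and 109 in the Hand2NC and wild-type heads, against 418 and 309 in the Hand2NC and wild-type whole bodies. Epor, the erythropoietin receptor, read 50 and 86.7 in the Hand2NC and wild-type heads, against 227 and 176 in the Hand2NC and wild-type whole bodies. Gfi1b, a repressor of both lineages, read 63.2 and 30.0 in the Hand2NC and wild-type heads, against 198 and 159 in the Hand2NC and wild-type whole bodies. Both head signals lay below their array medians in Epor and Gfi1b, as they did in Epb42, Rhag and Gata1, 5 members in all, and 1 head signal did in Hemgn (wild-type) and in Cpox, Sptb and Nfe2 (Hand2NC), so the size of those differences rests on dim signals. Trim10, a protein of terminal red cell maturation, had 207 and 224 in the Hand2NC and wild-type heads, against 647 and 658 in the Hand2NC and wild-type whole bodies.

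The other 3 regulators stayed within 2-fold. Tal1, which also acts in megakaryocytes and blood progenitors, read 617 and 772 in the Hand2NC and wild-type heads, against 1038 and 1237 in the Hand2NC and wild-type whole bodies. Its partner Lmo2, also expressed in endothelium, read 996 and 956 in the Hand2NC and wild-type heads, against 1554 and 1538 in the Hand2NC and wild-type whole bodies. Gata2, a factor of blood progenitors, endothelium and neurons, went the other way, with 407 and 532 in the Hand2NC and wild-type heads and 371 and 368 in the Hand2NC and wild-type whole bodies. It was the only member whose 2 head signals both lay above both whole-body signals.

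Of the 3 cytosolic enzymes, 2 were at least 2-fold lower in the heads in each genotype. Car2, a carbonic anhydrase of red cells and other tissues, read 1426 and 1556 in the Hand2NC and wild-type heads, against 6565 and 7159 in the Hand2NC and wild-type whole bodies, with log2 -2.20 in both genotypes. Blvrb, the biliverdin reductase of fetal red cells, read 540 and 608 in the Hand2NC and wild-type heads, against 1738 and 1883 in the Hand2NC and wild-type whole bodies. Bpgm, which makes the phosphoglycerate that lowers the oxygen affinity of hemoglobin, read 2119 and 2387 in the Hand2NC and wild-type heads and 2079 and 2320 in the Hand2NC and wild-type whole bodies. Its groups overlapped, with log2 differences of 0.03 in Hand2NC and 0.04 in wild-type.

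**Figure D2:**
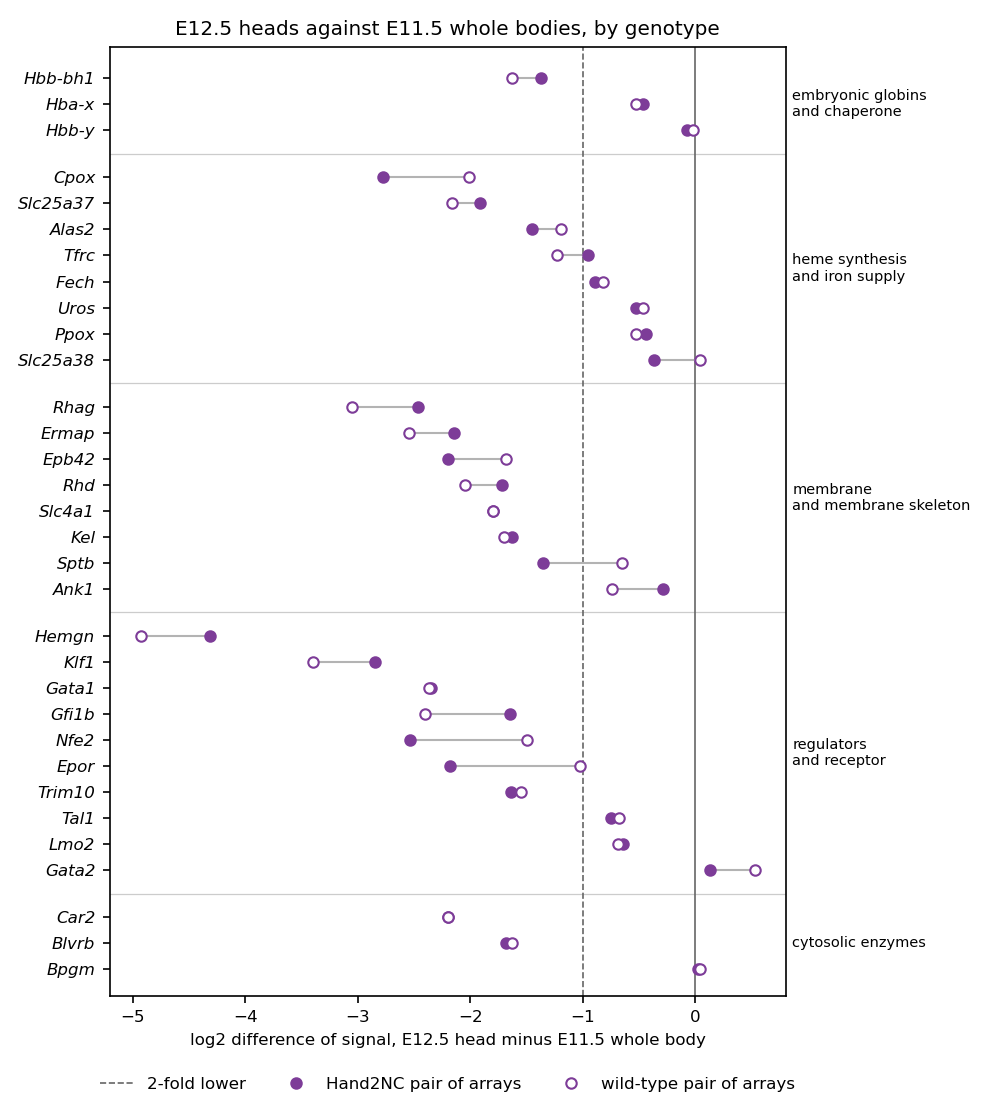
Log2 difference of signal between E12.5 head and E11.5 whole body for each of the 32 genes, filled for the Hand2NC pair of arrays and open for the wild-type pair, with a dashed line at 2-fold lower and a solid line at no difference. Hemgn lies farthest left (-4.32 and -4.93), and Hbb-y, Bpgm, Slc25a38 and Gata2 lie near or right of 0.

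A limma fit over all 4 arrays, with genotype as a block, tested the stage and tissue term for 31 members, Gfi1b being below its signal filter. In this fit 27 of 31 members were lower in the E12.5 heads and 0 were higher at an adjusted p under 0.05, where 16.6% of 11575 genes were lower and 22.1% higher. By role, 2 of 3 globins, 7 of 8 heme and iron genes, 8 of 8 membrane genes, 8 of 9 regulators and 2 of 3 enzymes were lower. Hemgn was lower by log2 -4.62 (SE 0.145), Klf1 by -3.12 (SE 0.154) and Hbb-bh1 by -1.50 (SE 0.0831). The 4 that did not pass were Hbb-y (log2 -0.05, limma adjusted p = 0.680), Bpgm (0.03, limma adjusted p = 0.795), Slc25a38 (-0.16, limma adjusted p = 0.334) and Gata2 (0.33, limma adjusted p = 0.0592). The fit leaves 1 residual degree of freedom a gene and takes its spread from genes of like signal, and without the mean-variance trend, which gives more weight to each gene's own spread, the limma adjusted p for Hbb-bh1 was 0.000729, the highest of its 8 alternatives (lowest 1.16e-74).

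A second list held 83 other erythroid genes, of which 69 had a probe set. At least 2-fold lower in the heads were 10 of 61 above the filter in Hand2NC and 8 of 60 in wild-type, where 2.24% and 2.61% of all genes were. At least 2-fold higher were 0 in Hand2NC and 1 in wild-type, where 2.87% and 4.45% of all genes were. The medians were -0.32 in Hand2NC and -0.34 in wild-type. In the limma fit 28 of 57 were lower and 5 higher, where 16.6% of all genes were lower and 22.1% higher. The 6 that were 2-fold lower in both genotypes were Hbb-b2, an adult beta globin (176 and 290 in the Hand2NC and wild-type heads, against 658 and 650 in the Hand2NC and wild-type whole bodies), Hebp1, a heme-binding protein, Icam4, a red cell adhesion protein, Slc14a1, a urea transporter, Ikzf1, a lymphoid and erythroid factor, and Pklr, the pyruvate kinase of liver and red cells. Hebp1 differed by log2 -2.48 in Hand2NC and -2.06 in wild-type, and Pklr by -2.08 and -2.86. The adult alpha globin probe sets with a single symbol were at or below 71.1 on every array, below every array median, but 4 globin probe sets with several symbols, named for no gene here, read between 12991 and 32256, so these low values do not show that adult alpha globin was absent.

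Markers of liver, heart muscle and megakaryocytes were lower in the heads, as most members were, while the other marker lists were little changed or higher. Of 10 liver cell markers with a probe set, 9 were at least 2-fold lower in the heads in each genotype, with medians of -5.23 in Hand2NC and -5.0 in wild-type. Only 2 of 10 were at or above the median on each E12.5 array, against 10 of 10 on each E11.5 array, and the summed signal was 14595 and 18094 in the Hand2NC and wild-type heads, against 40398 and 41288 in the Hand2NC and wild-type whole bodies. Most of the sum in the heads was Ttr, which choroid plexus also makes. Heart muscle markers had medians of -3.26 in Hand2NC and -3.52 in wild-type. Megakaryocyte and platelet markers, from the lineage closest to red cells, were 2-fold lower in 7 of 9 in each genotype, with medians of -1.57 in Hand2NC and -1.41 in wild-type and summed signals of 1828 and 2004 in the Hand2NC and wild-type heads, against 6783 and 6470 in the Hand2NC and wild-type whole bodies. Macrophage markers had medians of -0.05 and -0.02 and endothelial markers of -0.11 and -0.12 in Hand2NC and wild-type. Head and forebrain markers had medians of 1.38 in Hand2NC and 1.55 in wild-type. The part of these tissues in the members' differences was not tested.

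**Figure D3:**
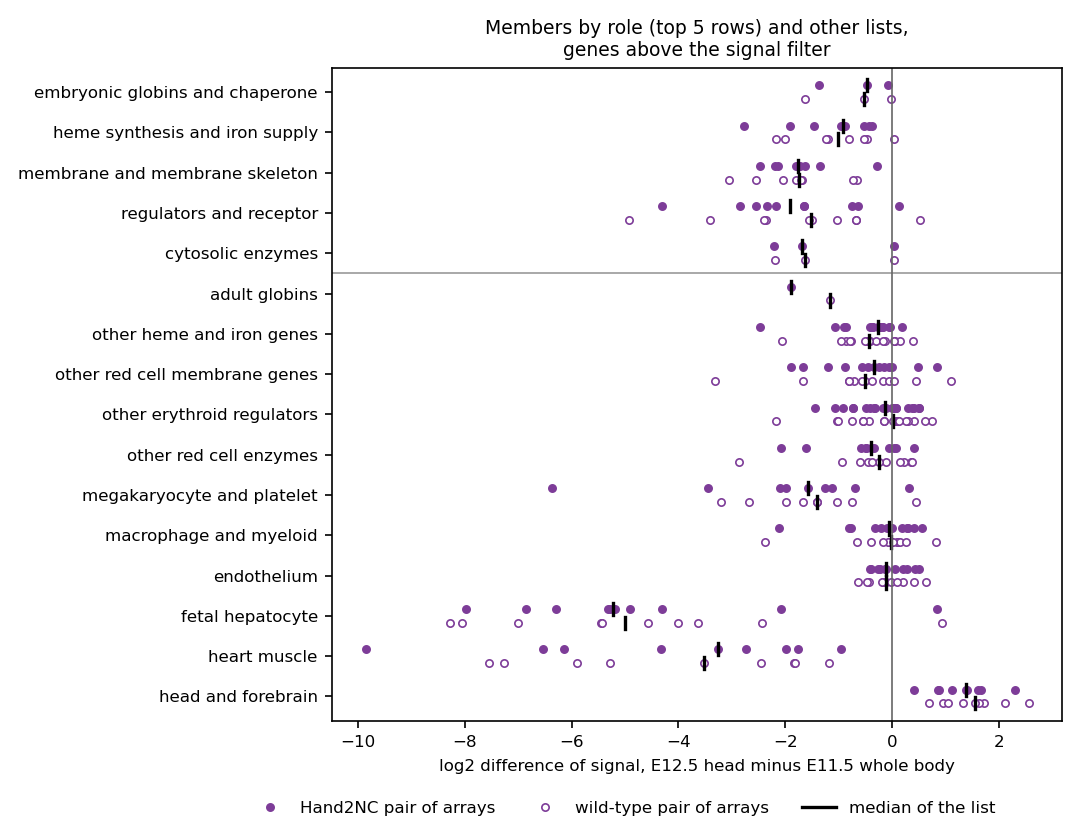
Log2 difference of signal between E12.5 head and E11.5 whole body for each gene above the signal filter, 1 row per list, filled for the Hand2NC pair and open for the wild-type pair of arrays, with black ticks at the list medians. The upper 5 rows are the members by role, and below them stand other erythroid lists and markers of other cells, of which the liver and heart lists lie farthest left and the head and forebrain list lies right of 0.

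Between genotypes the differences of the erythroid and heme genes were small. Lower in Hand2NC were 18 of 27 members above the filter at E12.5, beside 5797 of 11815 genes. At E11.5 19 of 32 were lower, beside 6270 of 11886 genes, which is near the share over all genes. No member above the signal filter was 2-fold different between Hand2NC and wild-type, of 27 at E12.5 (where 0.203% of all genes were higher and 0.195% lower) or of 32 at E11.5 (0.177% higher and 0.269% lower). At a lower cutoff, a log2 difference of at least 0.32, in the E12.5 heads 3 of 27 members were higher and 6 lower, where 5.1% of all genes were higher and 6.64% lower. In the E11.5 whole bodies 4 of 32 were higher and 1 lower, where 6.61% of all genes were higher and 5.75% lower. Counted instead by a difference larger than the spread of genes of like signal, 5 of 27 were higher and 12 lower at E12.5 (17% and 16.9% of all genes), and 6 of 32 were higher and 12 lower at E11.5 (16.5% and 17.9% of all genes), so at E11.5 the direction with more members depended on the cutoff. The members' median was -0.11 at E12.5 and -0.07 at E11.5, beside 0.00 and -0.01 over all genes. Without ambiguous probe sets, 1 of the alternatives, the members' medians were -0.10 at E12.5 and 0.00 at E11.5. Of the 27 members above the filter at both stages, 13 were lower in Hand2NC at both, 3 were higher at both and 11 had opposite signs. The single array per group leaves no replicate error for these differences, so the spread of the 500 genes nearest in signal is given with them.

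Alas2 was the member with the largest decrease in Hand2NC at each stage among those above the filter. Against the signals given above, its log2 difference was -0.67 in the E12.5 heads, where genes of like signal had a spread of 0.216, and -0.42 in the E11.5 whole bodies, with a spread of 0.148. It was the only member past that lower cutoff in the same direction at both stages. In the limma fit with stage as a block it was 1.46-fold lower in Hand2NC (log2 -0.54, SE 0.129, limma adjusted p = 0.0117), and it was the only 1 of 31 members called, where 0.207% of 11575 genes were lower and 0.294% higher. The call was lost in 4 of 8 alternatives, with limma adjusted p between 0.0113 and 1.00 over all 8. In those 4, almost no gene of any kind was called between genotypes. Alas2 lies on the X chromosome, and the Hand2NC E12.5 array is the one whose Xist and Y-linked signals stood apart. In the E11.5 pair Eif2s3y read 853 in Hand2NC and 840 in wild-type, and Xist read 10567 in Hand2NC and 11947 in wild-type. Of other Y-linked genes there, Uty read 475 in Hand2NC and 315 in wild-type, and Kdm5d 535 in Hand2NC and 578 in wild-type. The part of sex in the Alas2 difference was not tested. Gata1, also X-linked, differed by 0.08 at E12.5, with both arrays below their median, and by 0.06 at E11.5. Alas1, the form of the enzyme used by all tissues, differed by 0.04 at E12.5 and -0.09 at E11.5.

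The other heme genes showed no shared direction. Cpox had log2 -0.44 at E12.5 (spread 0.367) and 0.32 at E11.5 (spread 0.172), and a second of its 3 probe sets read 119 in Hand2NC heads and 116 in wild-type heads. Fech differed by -0.22 at E12.5 and -0.15 at E11.5, Uros by -0.10 and -0.04, and Ppox by 0.15 and 0.06. Slc25a37 differed by -0.03 at E12.5 and -0.28 at E11.5, Tfrc by 0.09 and -0.19, and Slc25a38 by -0.20 and 0.21. By the probe sets used, all 6 genes stayed within 0.32 at both stages. Another Fech probe set above the filter differed by -0.33 at E12.5, past that cutoff, and by 0.02 at E11.5. A further Fech probe set differed by 0.04 at E12.5 and 0.03 at E11.5.

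Embryonic globins were within 1.13-fold between genotypes at both stages. At E12.5 Hbb-bh1 differed by 0.09, Hbb-y by -0.12 and Hba-x by -0.12, and at E11.5 the differences were -0.17 for Hbb-bh1, -0.07 for Hbb-y and -0.18 for Hba-x. In the limma fit over both stages Hba-x differed by -0.15 (SE 0.0838, limma adjusted p = 0.976). The adult globin Hbb-b2 differed by -0.72 at E12.5 (spread 0.242), and by 0.02 at E11.5.

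In the membrane group, by the probe sets used, the E12.5 differences beyond 0.32 were Ank1, higher by 0.54 (spread 0.236), and Sptb, at -0.56 (spread 0.40). Both are partners in the skeleton. At E11.5 neither passed that cutoff, with 0.10 for Ank1 and 0.14 for Sptb, while Epb42 was higher by 0.42 (spread 0.229). Slc4a1 differed by -0.06 at E12.5 and -0.07 at E11.5, Kel by -0.02 and -0.09, Rhd by 0.09 and -0.24, and Ermap by 0.29 and -0.12. A second Slc4a1 probe set above the filter differed by -0.34 at E12.5, past the cutoff, and by -0.08 at E11.5. Rhag differed by 0.14 at E11.5, and at E12.5 both of its signals were below their array medians.

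Among the regulators, Hemgn was higher in Hand2NC heads by 0.55 (spread 0.405) and Klf1 by 0.41 (spread 0.314), both from signals near or below the array medians, and at E11.5, where their signals were far above the medians, they differed by -0.07 and -0.15. Nfe2 had log2 -0.61 at E12.5 (spread 0.407) and 0.44 at E11.5 (spread 0.226). Tal1 was lower at both stages, with log2 -0.32 at E12.5 (spread 0.145) and -0.25 at E11.5 (spread 0.128), and did not pass in the limma fit (log2 -0.29, SE 0.113, limma adjusted p = 0.490). Gata2 had log2 -0.39 at E12.5 and differed by 0.01 at E11.5, and Epor was higher by 0.36 at E11.5. A second Gata2 probe set above the filter differed by -0.06 at E12.5 and by -0.43 at E11.5. Gfi1b, at 63.2 in Hand2NC heads and 30.0 in wild-type heads, had the largest ratio at E12.5, but both signals were below the filter, and at E11.5 it differed by 0.31, just inside the lower cutoff. Trim10 and Lmo2 stayed between -0.11 and 0.06 at both stages. By the probe sets used, the enzymes Bpgm, Car2 and Blvrb were all slightly lower in Hand2NC. Their log2 differences were -0.17, -0.13 and -0.17 at E12.5 and -0.16, -0.13 and -0.12 at E11.5. Another Bpgm probe set above the filter differed by -0.05 at E12.5 and 0.04 at E11.5, and a further one by 0.07 and -0.24.

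**Figure D4:**
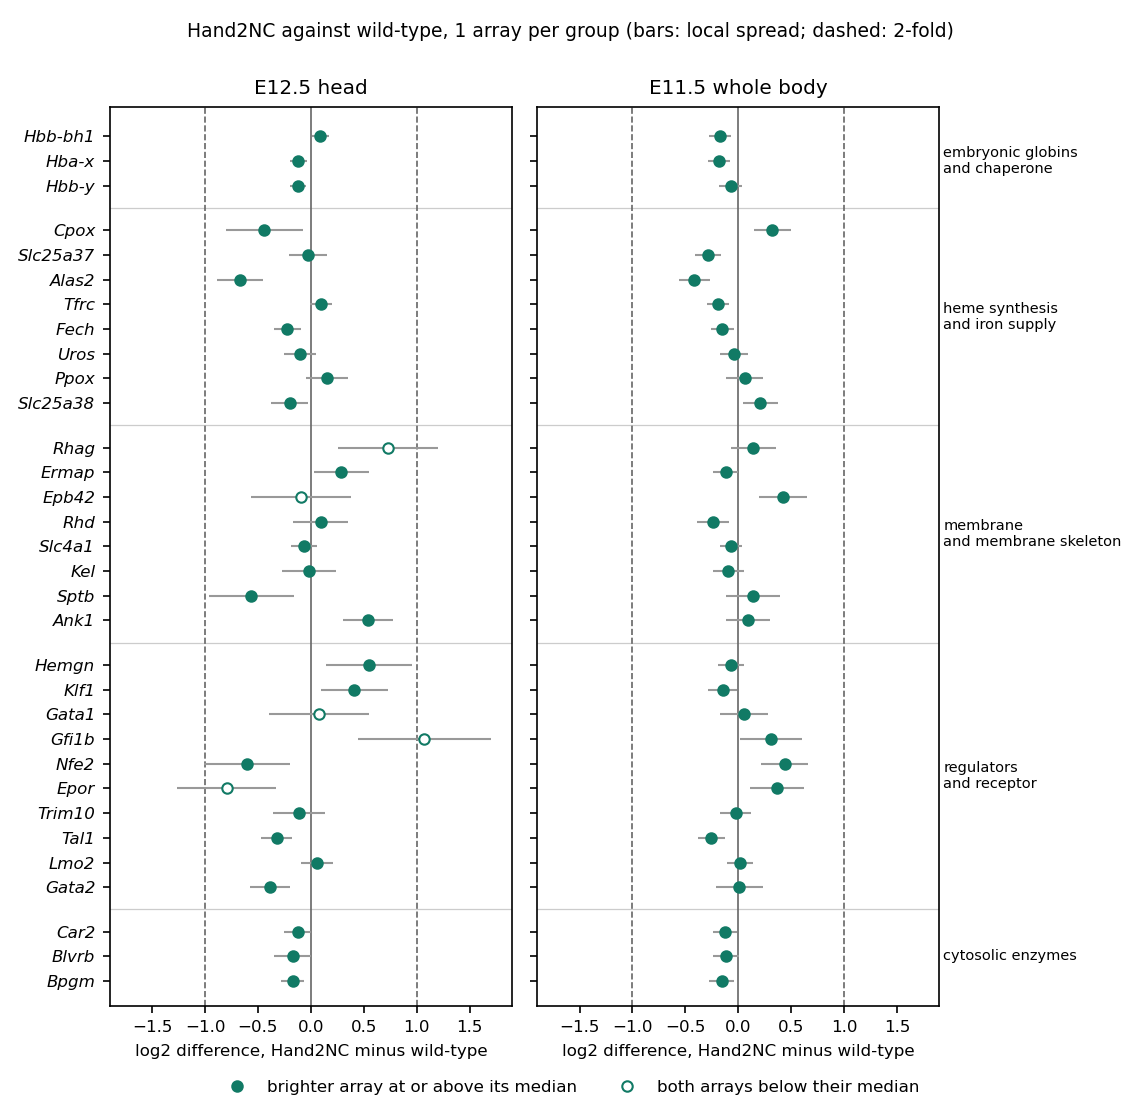
Log2 difference of signal between Hand2NC and wild-type for each of the 32 genes, in E12.5 heads (left) and E11.5 whole bodies (right), with bars for the robust standard deviation of the 500 genes nearest in signal and dashed lines at 2-fold. Open points have both arrays below their median, no filled point reaches 2-fold, and Alas2 is the filled point farthest left at each stage.

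Between genotypes, the other erythroid genes had a median of -0.09 at E12.5, with 0 of 56 past 2-fold, and of -0.06 at E11.5, with 0 of 60 past 2-fold. In the limma fit 1 of 57, Foxo3, a factor active in late red cells and many other tissues, was lower (log2 -0.42, SE 0.101, limma adjusted p = 0.0117). This call held in 3 of 8 alternatives, with limma adjusted p between 0.00940 and 1.00, and the difference was -0.10 at E12.5 (spread 0.126) and -0.75 at E11.5. Other red cell enzymes had medians of -0.20 at E12.5 and -0.08 at E11.5, and of the heart muscle markers 1 of 9 was higher and 1 lower in the limma fit. Megakaryocyte markers had medians of -0.11 at E12.5 and 0.05 at E11.5, and macrophage markers of -0.10 and -0.04.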

How the data were processed

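Total RNA of each group was pooled, labelled with biotin and hybridised to 1 array. The authors deposited linear intensity values from MAS5 (version not given in the sources used here), with 1 signal for each of 45101 probe sets and no detection calls. All 4 columns matched a sample. Without 64 control probe sets, arrays were brought to a common 2% trimmed mean of 500 and log-transformed (log2). Names came from the platform annotation: 34945 probe sets had 1 symbol, 932 several and 9160 none, and 34741 had a gene identifier in the RefSeq GRCm38.p6 table, with 0 symbols changed. Each gene was represented by its brightest single-symbol probe set, by mean log2 over the 4 arrays. It entered a comparison when the brighter of both arrays reached its own array's median. Pairs of arrays were called at 2-fold and, between genotypes, also at a log2 difference of 0.32, with no test. The spread given with a difference between genotypes is the robust standard deviation over the 500 genes nearest in signal. A limma fit of stage and genotype, with a mean-variance trend and Benjamini-Hochberg adjustment over 11575 genes, tested both terms (2 arrays a side, adjusted p under 0.05). It assumes that each difference is the same at the other level of the block. The number of arrays limits the precision. The counting and the fit were tested on simulated data.

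The alternatives were other scalings, filters, treatments of dim signals and of several probe sets, and fits without the trend or the block. Members, lists and tests were chosen with earlier results of these data known. Named are the members by role, adult globins, and other erythroid genes past 2-fold in both genotypes. Alas1, Foxo3, Alb and Ttr were named after their values were seen. Adult globin probe sets with several symbols were left out of the counts. Python 3.11.15, numpy 2.4.6, pandas 2.3.3, statsmodels 0.14.6, matplotlib 3.10.9, R 4.3.3 and limma 3.58.1 were used.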

Additional observations from a re-analysis of the deposited data

Results flagged for a closer look

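Cpox and Nfe2 had differences between Hand2NC and wild-type of opposite direction at the 2 stages, each past a log2 difference of 0.32. For Cpox the log2 difference was -0.44 at E12.5 and 0.32 at E11.5, and E12.5 minus E11.5 was -0.762. For Nfe2 it was -0.61 at E12.5 and 0.44 at E11.5, and E12.5 minus E11.5 was -1.04. With 1 array per group, neither difference between the stages was tested. A second Cpox probe set above the filter differed by 0.04 at each stage and showed no change of direction. For both genes, the Hand2NC signal at E12.5 lay below its array's median.

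Of 4 globin probe sets with several gene symbols, which were left out of the counts, 1 was over 2-fold higher in Hand2NC heads. It read 29226 in Hand2NC heads and 12991 in wild-type heads at E12.5 (log2 1.17), and 28899 in Hand2NC whole bodies and 32256 in wild-type whole bodies at E11.5. The other 3 globin probe sets with several symbols differed between genotypes by -0.32 to -0.10 at E12.5. The value rests on the low signal of the wild-type E12.5 array, and the cause was not tested.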

How the results depend on the processing

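At least 2-fold lower head signals in both genotypes were found for 19 members, and for 20 with the wild-type pair alone, without the Hand2NC E12.5 array, a setting chosen after seeing the data. The 2-fold count in Hand2NC (20) became 12 when both arrays had to lie at or above their median and 13 where the filter stood at the 75th percentile, while the limma count of lower members (27) became 13 with the same strict filter. In each case fewer members were tested. Between genotypes at 2-fold, 1 member was higher at E12.5 with no filter (Gfi1b), against 0. At a log2 difference of 0.32 and E12.5, 5 were higher with no filter and 0 with the strict one, against 3, and 3 were lower with both arrays above their median and 2 with the strict filter, against 6. At the same cutoff and E11.5, 2 were higher and 2 lower with median centring, 1 was higher with the strict filter, 2 were higher and 3 lower with the mean over probe sets, and 0 were lower without ambiguous probe sets, against 4 higher and 1 lower. That 1 lower member, Alas2, has only 1 probe set, which the setting without ambiguous probe sets leaves out. The limma count of 1 lower member between genotypes, Alas2, became 0 without the trend, without the block, with no filter and with the mean over probe sets. Over all genes 34 were called higher and 24 lower in the main fit. Without the trend and without the block 0 were called, with no filter 0 higher and 1 lower, and with the mean over probe sets 0 higher and 2 lower. The loss was thus not particular to Alas2. Apart from the dropped Alas2 probe set, the cause of these changes was not tested. No member lost from a strict filter is thereby shown to be unchanged.

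In the limma fit the sign turned for the stage difference of Bpgm with median centring (-0.030), Hbb-y with quantile normalization (0.025) and Ppox with the mean over probe sets (0.12), and for the genotype difference of Hbb-bh1 with quantile normalization (0.027), of Uros with the mean over probe sets (0.16), and of 4 regulators where dim signals were lifted to the median of their array, Gata1 (-0.00031), Epor (0.15), Nfe2 (0.17) and Hemgn (-0.049). Only Ppox among these had passed the test. Of all values under alternatives, those above included, 1311 of 1372 for single members and medians were kept. For limma values this meant the same sign and call, for pairs of arrays a change within the spread, and for medians a small change. For counts, 135 of 153 equalled the main count or stayed within a set ratio of it, so a kept count can differ. No paired analysis was possible because each group has 1 array and the labels give no replicate numbers. Probe sets other than the one used had the same direction between stages in 12 of 13 cases above the filter in each genotype, and between genotypes in 7 of 11 at E12.5 and 8 of 13 at E11.5.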
